A study of Mus musculus with 6 samples.

Results

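The genes described here belong to the Hippo pathway, and 9 of the 10 asked for could be read on the arrays, out of 25608 gene names used in all. They were taken by symbol. A probe counted as a member's if the denser array design names it for Nf2, Stk3, Stk4, Sav1, Lats2, Yap1, Wwtr1, Tead1 or Tead4, and the sparser design was joined by probe name. Lats1 had no probe under its symbol on the denser design and was dropped. The 9 genes lie on 9 chromosomes and hold from 3 probes (Sav1) to 35 (Stk3). Only 1 to 3 probes per gene are also on the sparser design.

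The tumours were asbestos-induced malignant mesotheliomas of Arf knock-out mice, per the series title. The design text gives 4 Arf (+/-) mice, whereas the titles name 5 tumours (ARF-112, ARF-104, ARF-129, ARF-128 and ARF-110). The sources do not settle this, so the genotype of every tumour is not certain, nor is it known whether some shared a mouse. Labels call the material primary mesothelioma cells, except for ARF-104, where no cell type is given. Tumour DNA (Cy5) competed with C57BL/6J DNA (Cy3) on every array. A value is therefore the log2 ratio of tumour over reference, 0 being the array's autosomal median. The strain background of the mice, their age and the asbestos schedule are not given in the sources used here, so an inherited difference from C57BL/6J and a change in the tumour cannot be told apart. In bulk DNA, a small change in most cells and a larger change in a few also cannot be told apart.

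The Hippo pathway restrains growth. Merlin, the product of Nf2, and the scaffold Sav1 help the kinases Mst2 (Stk3) and Mst1 (Stk4) to activate the kinases Lats1 and Lats2, which phosphorylate the co-activators Yap1 and Taz (Wwtr1) and keep them out of the nucleus. Unrestrained, Yap1 and Taz bind the Tead transcription factors and switch on growth genes. In human mesothelioma, inactivation of NF2 is a well-known lesion, and LATS2 is lost in a part of the tumours.

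Probe noise, the SD of log2 ratios estimated from neighbouring probes, ran from 0.15 on the array of ARF-110 to 0.78 on the denser array of ARF-128. ARF-110 was read on the sparser design only, and ARF-128 on both, with the denser array, whose title adds an unexplained "PlusMinus", standing for that tumour unless stated. ARF-104, ARF-112 and ARF-129 were scanned on 1 day. Cdkn2a, the locus that encodes Arf, stood at -1.10, -3.30, -0.64, -1.08 and -0.14 in ARF-112, ARF-104, ARF-129, ARF-128 and ARF-110; the labels do not place these probes in or outside the inherited deletion.

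Segments over the 9 genes were gained (mean at or above 0.25) in 5 of 45 gene and tumour pairs and lost (at or below -0.25) in 6. Over all genes tested, 13.7% of pairs were gained and 9.35% lost. Stk3 was the member gained in the most tumours, in 4. Sav1 was lost in 2 tumours, and Lats2, Wwtr1, Tead1 and Tead4 in 1 each. Nf2 and Yap1 were called in no tumour. ARF-112 carried 2 gains and 3 losses, ARF-129 carried 1 gain and 3 losses, ARF-104 and ARF-110 carried 1 gain each, and ARF-128 carried none. Without ARF-112, 3 gains and 3 losses were left, and without ARF-129 the losses were also 3. With normexp background correction 4 pairs were gained, all of Stk3, and 0 lost. The share of such pairs over all genes was not computed with normexp. On own probes limma with normexp called 2260 of all genes higher and 707 lower, against 2352 and 2101 without it. In 7 of the 11 called pairs the gene's own probes passed the same limit, and in 3 their mean had the opposite sign to the segment.

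**Figure D1:**
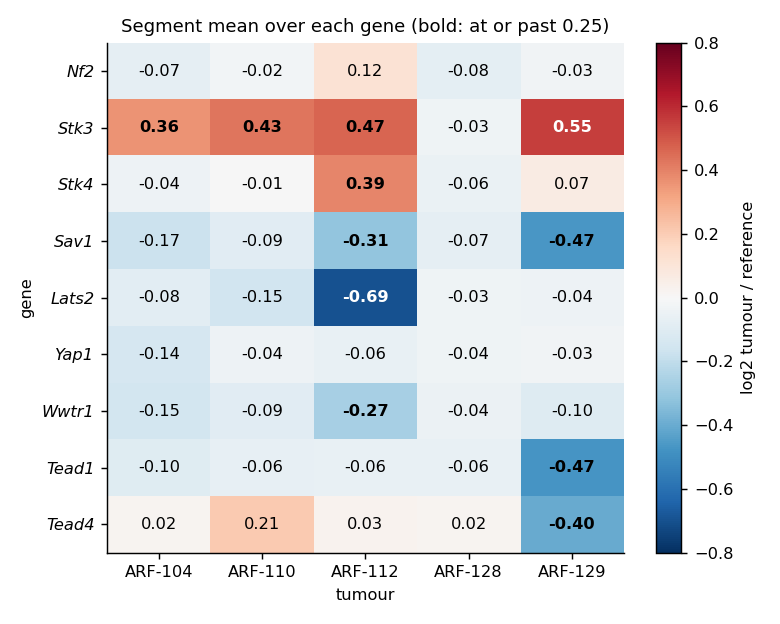
Mean log2 ratio of the segment over each gene (rows) in each of the 5 tumours (columns), with the value printed in the cell and calls at or past 0.25 in bold. Stk3 is called gained in 4 tumours, and the 6 losses lie in ARF-112 and ARF-129.

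Nf2 encodes Merlin, a membrane-associated protein that links cell contact to the pathway, and its 11 probes span chr11:4724316-4798152 (build mm7, as are all positions below). Their mean was 0.08 in ARF-112, -0.12 in ARF-104, -0.19 in ARF-129, -0.23 in ARF-128 and 0.13 in ARF-110. The tumours lay on both sides of 0, and no segment over the gene passed 0.12 in either direction. The mean was -0.07 ± 0.16 (SD, n = 5) with a 95% limma interval of -0.29 to 0.15 (adjusted p = 0.643). Against the other probes within 1 Mb the gene was lower by 0.08 on average, with ARF-110 above its flank and the other 4 tumours below (limma adjusted p = 0.348). The neighbours on the 2 sides, Cabp7 and Nipsnap1, had means of -0.29 ± 0.32 and -0.01 ± 0.10 (SD, n = 5). On 2 probes of its sparser array ARF-128 read 0.25 where the denser array read -0.23, so the 2 arrays of that tumour gave opposite signs.

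Stk3 encodes Mst2, an upstream kinase, and its 35 probes span chr15:34988695-35256260. Their mean was 0.45 in ARF-112, 0.40 in ARF-104, 0.54 in ARF-129, -0.06 in ARF-128 and 0.41 in ARF-110. Thus 4 tumours lay close together above 0 and ARF-128 lay apart at about 0, also on its sparser array (0.00). The probes of Stk3 followed those around them. The difference from the flanking 1 Mb stayed between -0.06 and 0.01 in the 5 tumours, with a mean of -0.02 ± 0.03 (SD, n = 5; 95% limma interval -0.13 to 0.08, adjusted p = 0.692). The gained segments were 56.0 to 70.5 Mb long. Laptm4b, a lysosomal membrane protein gene, had the most similar values among 20 genes within 1 Mb with a value in all 5 tumours, with a root mean square difference of 0.06 over the 5 tumours. On its own probes Stk3 averaged 0.35 ± 0.23 (SD, n = 5), and the limma adjusted p was 0.0589. It was 0.0111 without ARF-128, 0.0227 with that tumour's sparser array and 0.205 with scan days as random blocks.

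Stk4 encodes Mst1, the paralogue of Mst2, and its 10 probes span chr2:163819546-163892939. Their mean was 0.52 in ARF-112, 0.04 in ARF-104, 0.22 in ARF-129, -0.06 in ARF-128 and 0.17 in ARF-110. Among these values ARF-112 stood highest, inside a gained segment of 71.2 Mb (0.39) that ran to the last probe of the chromosome. In all 5 tumours the gene's probes lay above their flank, by 0.12, 0.08, 0.17, 0.06 and 0.18 in the same order, a mean of 0.12 ± 0.05 (SD, n = 5) that missed the threshold (limma adjusted p = 0.0949). The eighth probe stood out, with 1.20, 0.72, 0.97, 0.78 and 0.16 in the same order, while the other 9 probes had means over tumours of -0.19 to 0.38. That probe is 1 of only 2 that the sparser design shares, so it weighs more in ARF-110. On these 2 probes ARF-128 read 0.56 on its sparser array and 0.51 on its denser array, against -0.06 on all 10. The sparser array of ARF-128 put Stk4 0.52 above its flank. Restricted to the shared probes, the difference from the flank was 0.44 (limma adjusted p = 0.0307). With a flank of 0.5 Mb it was 0.18 (0.0386), without ARF-128 0.14 (0.0448), and with scan days as random blocks 0.12 (0.458).

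Sav1 encodes the scaffold, also called Salvador, that joins the Mst and Lats kinases, and it had 3 probes in chr12:67910138-67925290. They are printed because they read against their surroundings:
Sav1 probe 1: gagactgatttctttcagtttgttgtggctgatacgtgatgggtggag
Sav1 probe 2: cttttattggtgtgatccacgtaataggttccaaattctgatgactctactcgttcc
Sav1 probe 3: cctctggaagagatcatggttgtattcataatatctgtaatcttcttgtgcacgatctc

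The probes run from 48 to 59 bases, with GC contents of 45.8%, 40.4% and 39.0%, against 36.1% on average for the 214 probes in the flanking 1 Mb. No capitals are used in any probe shown, because none of the members' probes holds AGCT or GTAC, the palindromic sites at which AluI and RsaI cut the DNA before labelling. Among all 232020 probes, 0.022% hold the first and 0.0138% the second. The strand of the printed sequences is as the files give it.

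The mean of the Sav1 probes was 0.05 in ARF-112, 0.19 in ARF-104, 0.25 in ARF-129, -0.36 in ARF-128 and 0.01 in ARF-110. The segment over them was lost in ARF-112 (-0.31, over 34.5 Mb) and ARF-129 (-0.47, over 49.0 Mb), while the gene's own probes lay above 0 in both, as they did in ARF-104 and ARF-110. The difference from the flank was 0.34, 0.27, 0.59, -0.23 and 0.07, so 4 tumours lay above their surroundings and ARF-128 below, whereas the sparser array of ARF-128 gave 0.50. The mean was 0.21 ± 0.31 (SD, n = 5; limma adjusted p = 0.224). It was 0.32 without ARF-128 (limma adjusted p = 0.0448) and 0.35 with the sparser array (0.0218), but 0.10 once the medians of GC bins had been levelled (0.438) and 0.09 with scan days as random blocks (0.814). The part of GC content in the result was not tested beyond that levelling. Spg3a, the gene before it, was also above its flank, by 0.29 ± 0.20 (SD, n = 5; limma adjusted p = 0.0514).

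Lats2 encodes the kinase that phosphorylates Yap1 and Taz, and its 8 probes span chr14:52558962-52609836. Their mean was -0.82 in ARF-112, -0.11 in ARF-104, -0.15 in ARF-129, -0.42 in ARF-128 and -0.16 in ARF-110. All 5 lay below 0, and ARF-112 lay lowest, within a lost segment of 28.4 Mb (-0.69). In ARF-112 every one of the 8 probes was below 0, from -0.24 to -1.40. In ARF-128 the probes ranged from -1.86 to 1.17, and the segment over the gene was at -0.03. The sparser array of that tumour put the gene at -0.29 and its flank at -0.25. The mean was -0.33 ± 0.30 (SD, n = 5), which missed the threshold (limma adjusted p = 0.0892). Against the flank the difference was -0.10 ± 0.13 (SD, n = 5; limma adjusted p = 0.242). Cryl1, a crystallin-like dehydrogenase gene with 18 probes, had the most similar values among 25 such genes within 1 Mb (root mean square difference 0.05). Just before the gene, 3 probes of a cDNA clone that the files describe as Lats2 stood 0.36 ± 0.14 (SD, n = 5) above their flank (limma adjusted p = 0.0246), at -0.46, 0.24, 0.40, 0.43 and 0.02 in the same order. ARF-112 was the lowest of the 5 on these probes too.

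Lats1, the paralogue of Lats2, could be looked at through 1 probe that carries a clone name but is described as Lats1 in the files (chr10:7403385-7403444), which was chosen after the values were seen. It stood at -0.49 in ARF-112, -0.45 in ARF-104, -0.22 in ARF-129 and -1.26 in ARF-128 and has no value in ARF-110. The segments over it were at -0.20, -0.13, -0.07 and -0.03 in those tumours, so none was called. In ARF-110 the segment over that position was at 0.246, just under the limit of 0.25 for a gain.

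**Figure D2:**
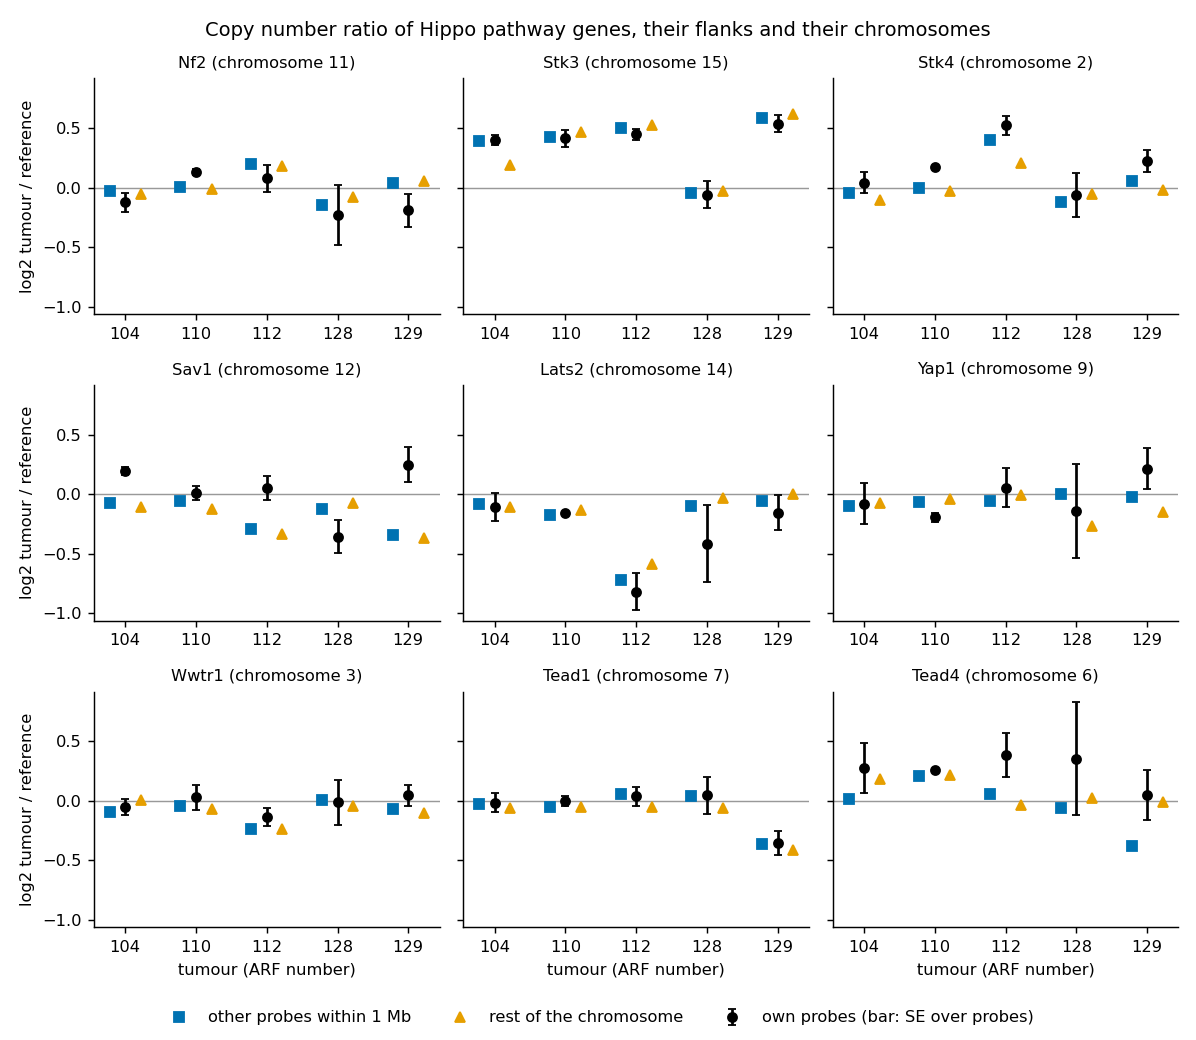
Log2 tumour over reference (vertical axis) in the 5 tumours (horizontal axis) for the own probes of each gene (circles, bars are the SE over probes; no bar where 1 probe was read), the other probes within 1 Mb (squares) and the rest of the chromosome (triangles). Stk3 and Tead1 move with their flanks, while Lats2 on the denser array of ARF-128 (-0.42 against -0.10), Sav1 in ARF-129 (0.25 against -0.35) and Tead4 in ARF-129 (0.05 against -0.38) do not. On the sparser array of ARF-128, which is not drawn, Lats2 was at -0.29 and its flank at -0.25.

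Yap1 encodes the co-activator that the Lats kinases restrain, and its 9 probes span chr9:7956211-8024212. Their mean was 0.06 in ARF-112, -0.08 in ARF-104, 0.21 in ARF-129, -0.14 in ARF-128 and -0.19 in ARF-110. The tumours lay on both sides of 0, and the segments over the gene stayed between -0.14 and -0.03. The mean was -0.03 ± 0.17 (SD, n = 5; 95% limma interval -0.25 to 0.19, adjusted p = 0.852). Birc3 and Birc2, genes of inhibitors of apoptosis that are amplified together with Yap1 in some tumours, had means of 0.02 ± 0.06 (SD, n = 5) and 0.06 ± 0.16 (SD, n = 4). Among the 22 genes within 1 Mb that had a value in all 5 tumours, Birc3 was the most similar to Yap1 (root mean square difference 0.13). Birc2, with 4 tumours, was not among them, and over those 4 its difference from Yap1 was 0.06. The segments over Yap1 were at least 17.3 Mb long in the 5 tumours.

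Single probes of Yap1 differed far more than the tumours did. Its lowest and highest probes in the mean over tumours, and the first probe, are printed because they show this range within 1 gene:
Yap1 probe 1: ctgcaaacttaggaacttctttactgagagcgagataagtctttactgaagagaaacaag
Yap1 probe 6: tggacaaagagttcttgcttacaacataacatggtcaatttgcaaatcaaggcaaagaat
Yap1 probe 7: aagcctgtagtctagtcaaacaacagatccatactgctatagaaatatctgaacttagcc

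Probe 1 (chr9:7956211-7956270) stood at -0.69, -1.11, -0.39, -2.04 and -0.23 in ARF-112, ARF-104, ARF-129, ARF-128 and ARF-110. Probe 7 (chr9:8012188-8012247) stood at -0.77, -0.75, -0.61 and -1.99 in the 4 tumours on the denser design. Probe 6 (chr9:7999318-7999377) lay at 0.66, 0.41, 0.80, 1.37 and -0.16. Probes 1 and 7 were thus low in every tumour that measured them, probe 6 was high in 4 of 5, and probes 6 and 7 start 43.1 and 56.0 kb from probe 1.

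Wwtr1 encodes Taz, the co-activator related to Yap1, and its 17 probes span chr3:57584966-57700192. Their mean was -0.14 in ARF-112, -0.05 in ARF-104, 0.04 in ARF-129, -0.01 in ARF-128 and 0.03 in ARF-110. This was the narrowest range of any member. ARF-112 was lowest, inside a segment at -0.27 that only just passed the limit and was not called with a penalty of 10 log n or on shared probes alone. The mean was -0.03 ± 0.07 (SD, n = 5; 95% limma interval -0.22 to 0.17, adjusted p = 0.852). Against the flank it was 0.06 ± 0.05 (SD, n = 5; exact sign-flip permutation p = 0.125), with 4 of 5 tumours above.

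Tead1, a DNA-binding partner of Yap1 and Taz, had 31 probes in chr7:108603518-108815981. Their mean was 0.04 in ARF-112, -0.02 in ARF-104, -0.35 in ARF-129, 0.04 in ARF-128 and -0.00 in ARF-110. ARF-129 stood apart from the other 4, within a lost segment of 78.1 Mb (-0.47). The gene followed its flank closely in all 5 tumours, with differences of -0.02 to 0.05 and a mean of 0.01 ± 0.02 (SD, n = 5; 95% limma interval -0.09 to 0.11, adjusted p = 0.852). On the 2 probes shared by both designs the sign turned. These stood at -0.56, -0.63, -1.07, -1.45 and -0.00, and the difference from the flank became -0.64 (limma adjusted p = 0.0450). On the sparser array of ARF-128 the same 2 probes read -0.39, where the denser array read -1.45.

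Tead4, another partner of Yap1 and Taz, had 5 probes in chr6:128261519-128288133, 1 of them also on the sparser design. The mean was 0.38 in ARF-112, 0.28 in ARF-104, 0.05 in ARF-129, 0.35 in ARF-128 and 0.26 in ARF-110. All 5 lay above 0, with ARF-129 lowest. The flanking probes stood at 0.06, 0.01, -0.38, -0.06 and 0.21 in the same order. The gene therefore lay above its flank by 0.33, 0.26, 0.43, 0.42 and 0.05, smallest in ARF-110, where only 1 probe was read. In ARF-129 the gene sat in a lost segment from 104331168 to 144380118 (-0.40) with its own probes at 0.05.

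Tead4 was the single member of 9 that passed a test across all genes. Against the flanking 1 Mb it was higher by 0.30 ± 0.15 (SD, n = 5; 95% limma interval 0.13 to 0.46, adjusted p = 0.0340), in 5 of 5 tumours. Across all genes 10.9% were called higher in that test and 10.7% lower, so 1 of 9 was near the background share. The exact two-sided sign-flip permutation test of Tead4 gave p = 0.0625, the smallest that 5 tumours allow. With scan days as random blocks the difference was 0.27 (limma adjusted p = 0.297), and limma then called 0 of all genes against the flank, with 2239 higher and 2165 lower at an unadjusted p under 0.05. Leaving out 1 of the 3 arrays of the shared scan day gave 0.31 without ARF-104 (limma adjusted p = 0.114), 0.29 without ARF-112 (0.125) and 0.27 without ARF-129 (0.133). In each of these cases too limma called 0 of all genes against the flank, with at least 3675 higher and 3617 lower at an unadjusted p under 0.05. Normexp background correction gave 0.10 (limma adjusted p = 0.0555), and the probe on both designs alone gave 0.61 (0.0750). On its own probes Tead4 averaged 0.26 ± 0.13 (SD, n = 5; limma adjusted p = 0.0770). Genes near it were called against their flanks too. D87966, the next gene after it, was higher by 0.25 ± 0.10 (SD, n = 4; limma adjusted p = 0.0461). Klrb1a, the most similar of 31 genes within 1 Mb, was higher by 0.30 ± 0.17 (SD, n = 5; 0.0395). AK039686, the gene before it, stood at -0.78 ± 0.52 against its flank on 1 probe (SD, n = 5; 0.0380).

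The 5 probes behind this call are printed because their readings were unlike each other in a way that recurred between ARF-112, ARF-104 and ARF-129, and in part in ARF-128:
Tead4 probe 1: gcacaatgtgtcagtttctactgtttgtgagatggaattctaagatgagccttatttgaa
Tead4 probe 2: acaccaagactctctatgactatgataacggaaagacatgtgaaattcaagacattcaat
Tead4 probe 3: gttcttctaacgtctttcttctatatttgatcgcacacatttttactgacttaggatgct
Tead4 probe 4: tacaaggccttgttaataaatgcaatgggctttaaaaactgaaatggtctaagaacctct
Tead4 probe 5: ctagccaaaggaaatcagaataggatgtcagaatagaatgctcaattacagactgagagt

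Probe 3 (chr6:128276995-128277054) was below 0 in all 4 tumours that measured it, at -0.28 in ARF-112, -0.51 in ARF-104, -0.70 in ARF-129 and -0.73 in ARF-128. Probe 5 (chr6:128288074-128288133) was above 0 in the same 4, at 0.85, 0.70, 0.56 and 1.32. Probe 1 stood at 0.40, 0.30 and 0.03 in ARF-112, ARF-104 and ARF-129 but at -0.14 in ARF-128. In the same order probe 4 stood at 0.55, 0.47, 0.25 and -0.33. Probe 2, the one on both designs (chr6:128270571-128270630), stood at 0.40, 0.42, 0.10, 1.64 and 0.26 in the 5 tumours. On the sparser array of ARF-128 the same probe read 0.23. This put Tead4 0.17 above its flank there, against 0.42 on the denser array. With the median of a gene's probes in place of the mean, the difference of Tead4 from its flank was 0.24 and its limma adjusted p was 0.114.

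**Figure D3:**
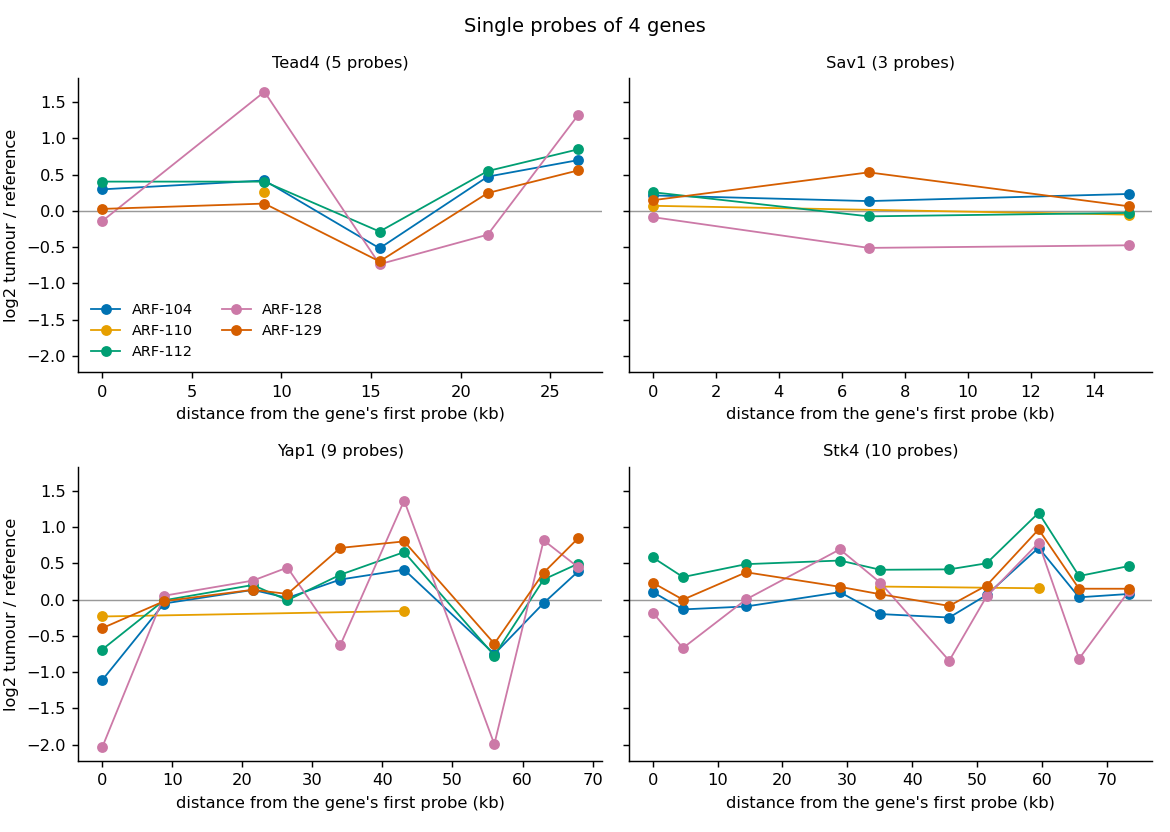
Log2 tumour over reference (vertical axis) of each single probe of Tead4, Sav1, Yap1 and Stk4 by distance from the gene's first probe in kb (horizontal axis), with 1 line per tumour. Many high and low probes recur in the same places, such as the third Tead4 probe (-0.28 to -0.73) and the eighth Stk4 probe (0.16 to 1.20).

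This recurrence held for the members' probes in general. The deviation of a probe from its segment correlated between ARF-104 and ARF-112 at r = 0.88, between ARF-112 and ARF-129 at 0.91 and between ARF-104 and ARF-129 at 0.84 over the members' probes, and at 0.88, 0.89 and 0.87 over all autosomal probes. These are descriptions across probes, which share the reference DNA, the dye orientation, the design and, for these 3 tumours, the scan day. Against the denser ARF-128 array, scanned on another day, r was 0.57 to 0.67 for the members' probes and 0.59 to 0.67 over all autosomal probes. The 2 arrays of ARF-128 correlated at 0.26 over the 18 members' probes on both, and at 0.37 over all autosomal probes. The sparser of them correlated with ARF-104, ARF-112 and ARF-129 at 0.62, 0.65 and 0.70 over all autosomal probes (members' probes 0.46, 0.54 and 0.48). ARF-110 shares only 18 of the members' probes, with r of -0.09 to 0.12 against the 4 denser arrays. Over all autosomal probes that it shares with those arrays r was 0.16 to 0.40. Against the sparser array of ARF-128 it was 0.62 for the 18 members' probes and 0.57 for all autosomal probes. The sign of the deviation was the same in ARF-104, ARF-112 and ARF-129 for 81.4% of the members' probes, against 80.2% of all autosomal probes, and for 5 of 5 Tead4 probes, 3 of 3 Sav1 probes and 9 of 9 Yap1 probes. The share was lowest for Stk4 (6 of 10 probes) and Stk3 (24 of 35). The part of such probe-specific readings in the Tead4 result was not tested.

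**Figure D4:**
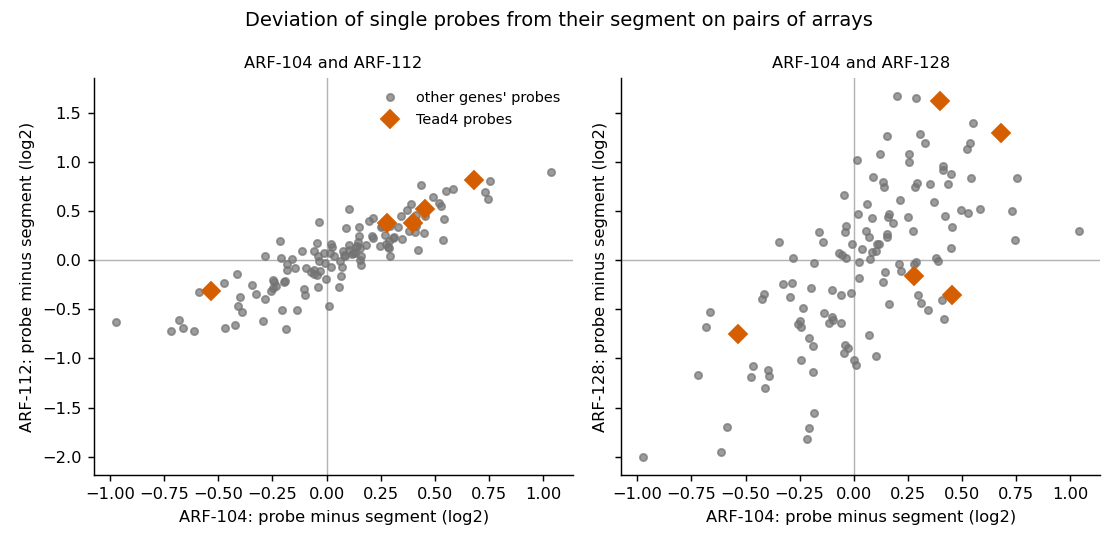
Deviation of each of the members' probes from its segment (log2) in ARF-104 (horizontal axis) against ARF-112 (left) and the denser array of ARF-128 (right), with the Tead4 probes as diamonds. The points follow a line for ARF-112 (r = 0.88) and scatter more for ARF-128 (r = 0.67).

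Over the 9 members together, limma called 0 on their own probes, with 2 higher and 1 lower at an unadjusted p under 0.05, where 9.19% of all genes were called higher and 8.21% lower. Against the rest of the chromosome it called 0, with 1 higher unadjusted, where 10.3% of all genes were higher and 8.08% lower. The smallest limma adjusted p in that test was 0.102, for Stk4, whose mean difference was 0.18 ± 0.12 (SD, n = 5), positive in 4 of 5 tumours. The median of the members' means was -0.03 on their own probes and 0.02 against the flank, and over all genes it was -0.01 and -0.00. With 5 tumours a miss in these tests does not show that a gene was unaltered. Counts changed with ARF-128: without it limma called 1 member on own probes (Stk3), 3 against the flank (Sav1, Stk4 and Tead4) and 2 against the chromosome (Sav1 and Stk4), where 21.4%, 32.1% and 27.1% of all genes were called in either direction.

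**Figure D5:**
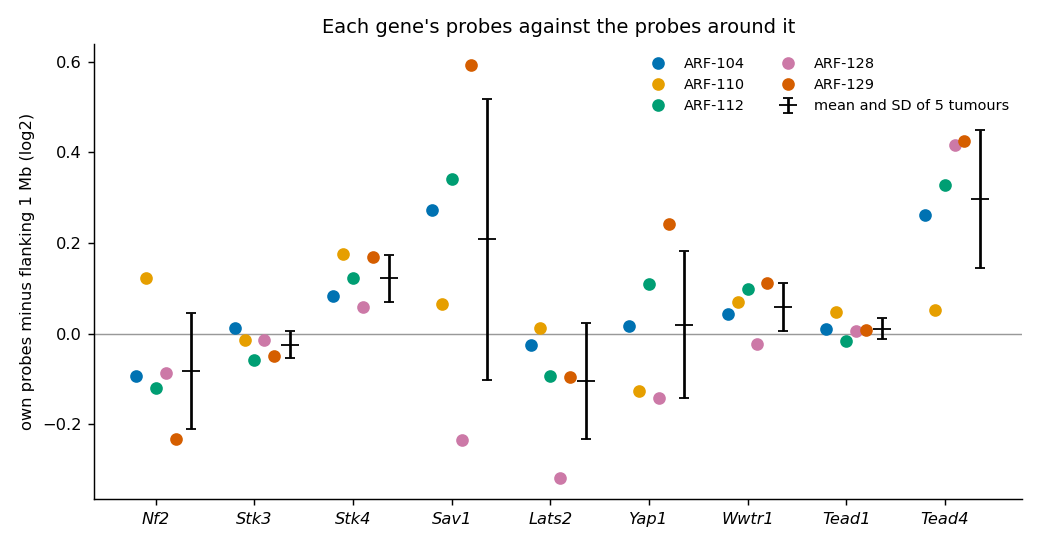
Difference between a gene's own probes and the other probes within 1 Mb (log2, vertical axis) for the 9 genes, with 1 point per tumour and the mean and SD of the 5 tumours beside them. Tead4 and Stk4 lie above 0 in all 5 tumours, and Stk3 and Tead1 stay within 0.06 of 0.

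Of 37 further genes of the pathway, 30 were matched to probes and tested, 29 by symbol and Mobkl1b through a RefSeq synonym. On own probes limma called 3 higher and 0 lower (background 9.19% and 8.21%), and against the flank also 3 and 0 (10.9% and 10.7%). At an unadjusted p under 0.05, 5 were higher and 5 lower on own probes, and 5 and 6 against the flank. Against the rest of the chromosome limma called 4 higher (Jub, Wtip, Ccnd1 and Tead2) and 0 lower, with 4 higher and 4 lower unadjusted (background 10.3% and 8.08%). Their median was -0.03 on own probes and -0.01 against the flank. Segments over them were gained in 20 of 150 pairs and lost in 20, against 13.7% and 9.35% of pairs over all genes.

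Among 18 measured core and scaffold genes, 1 was called higher on own probes and 2 against the flank. Scrib, a cell polarity scaffold on chromosome 15, stood at 0.78, 0.25, 0.94, 0.37 and 0.41 in ARF-112, ARF-104, ARF-129, ARF-128 and ARF-110 (limma adjusted p = 0.0221) and was gained in 3 tumours. The sparser array of ARF-128 gave -0.17, and the segment over Scrib on the denser array of that tumour was at -0.03. Against its flank Scrib was higher by 0.18 ± 0.21 (SD, n = 5; limma adjusted p = 0.169). The Ajuba family adaptors Jub and Wtip, which bind Lats kinases, were above their flanks by 0.39 ± 0.26 and 0.39 ± 0.22 (SD, n = 5; limma adjusted p = 0.0424 and 0.0328), on 2 and 3 probes. Jub stood at -0.16, 0.31, 0.62, 0.56 and -0.07, and Wtip at 0.25, 0.25, -0.08, 0.65 and 0.24. Wwc2, a Kibra family scaffold on chromosome 8, was gained in ARF-129, ARF-128 and ARF-104 (segments of 0.58, 0.44 and 0.35) and lost in ARF-110 (-0.38).

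The 4 further factors, Tead2, Tead3, Vgll4 and Runx2, had no limma call on own probes (0 unadjusted) or against the flank (1 higher and 1 lower unadjusted). Against the chromosome Tead2, a paralogue of Tead1 and Tead4 that was named after its values were seen, was higher by 0.29 ± 0.12 (SD, n = 5; limma adjusted p = 0.0344). Of 8 targets of Yap1 and Taz, 2 were higher on own probes. Ankrd1, a muscle ankyrin repeat protein and common Yap1 readout on chromosome 19, stood at 0.21, 0.36, 0.43, 0.12 and 0.59 (limma adjusted p = 0.0490). Its segment was gained in 4 tumours, and against its flank Ankrd1 stood at -0.07 ± 0.17 (SD, n = 5; limma adjusted p = 0.512). Ccnd1, a G1 cyclin read by 1 probe, stood at 1.02, 0.65, 1.23 and 0.20 in the 4 tumours on the denser design (limma adjusted p = 0.0254) and was also above its flank (0.85 ± 0.52, SD, n = 4; 0.0429), while its segment in ARF-129 was at -0.35. Myc, a growth-promoting transcription factor on chromosome 15, was gained in the same 4 tumours as Stk3, but on its single probe it did not pass (0.59 ± 0.69, SD, n = 5; limma adjusted p = 0.100). With scan days as random blocks none of the genes called on own probes or against the flank passed, with limma adjusted p of 0.110 for Scrib and 0.117 for Ccnd1 on own probes, and 0.277 for Wtip, 0.314 for Jub and 0.498 for Ccnd1 against the flank. The means were 0.51 for Scrib and 0.68 for Ccnd1 on own probes, and 0.45 for Wtip, 0.35 for Jub and 0.67 for Ccnd1 against the flank. That fit called 1.89% of all genes on own probes and, as given for Tead4, 0 against the flank.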

How the data were processed

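Array comparative genomic hybridisation was run on 6 arrays of 5 tumours. Per the file headers, the authors used Agilent Feature Extraction (8.5.1.1 for the sparser design, 9.5.3.1 for the denser ARF-128 array and 9.1.3.1 otherwise) to write a processed intensity per spot and colour, background-subtracted and dye-normalized by a linear factor. The deposited log10 ratios of the scanner files and the deposited value table (log10 for the sparser design, log2 for the denser) served as alternatives. They did not all equal the ratios of processed intensities. Nf2 averaged -0.056 on own probes with either of them, against -0.068 with the processed intensities. Here, log2 of red over green was taken, control and outlier spots were dropped, probes spotted more than once were averaged and arrays centred on the autosomal median. Coordinates are mm7, from the header of 1 denser array. Of 25701 gene names, 93 on several chromosomes or spanning over 3 Mb were left out.

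A gene's value is the mean of its own probes. It was tested with limma 3.58.1 (intercept, eBayes, Benjamini-Hochberg over all genes with values in at least 4 tumours) against 0, against the other probes within 1 Mb (at least 3) and against the rest of the chromosome. The spread of the reference DNA does not enter, and nothing says more of the tumours' independence than their numbers. Segments came from PELT (penalty 5 log n, at least 5 probes) with a limit of 0.25. Scripts were tested on simulated data. Tools were Python 3.11.15 with numba 0.67.0, pandas 2.3.3, numpy 2.4.6 and matplotlib 3.10.9, and R 4.3.3 with statmod 1.5.0. RefSeq names came from GRCm38.p6, used for names only. The number of arrays limits the precision.

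The members and lists were chosen with earlier results of these data known. Named are all members with a probe, further pathway genes past an adjusted p of 0.05 on own probes or against the flank or called the same way in at least 3 tumours, the nearest and the most similar genes, Birc2, Birc3, Cdkn2a, and the highest or lowest probes. Printed beyond that rule, after their values were seen, are the other Tead4 and Sav1 probes, Yap1 probe 1 and the clone probes described as Lats1 or Lats2. Alternatives are given in the closing section.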

Additional observations from a re-analysis of the deposited data

Results flagged for a closer look

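In 3 of 27 sets of 5 tumours (9 genes, each on its own probes, against the flank and against the chromosome), 1 tumour lay far from the other 4 by Dixon's criterion. Independent sets of normal values meet it in about 1 of 20. The 27 sets are not independent, since each gene enters 3 times, and the share over all genes was not computed. On its own probes Stk3 stood at -0.062 in ARF-128, with the other 4 tumours at 0.40 to 0.54. The own probes of Tead1 stood at -0.35 in ARF-129, with the others at -0.02 to 0.04. Against the rest of chromosome 15, Stk3 stood at 0.21 in ARF-104, with the others at -0.08 to -0.03.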

How the results depend on the processing

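Of 504 alternative values of the members' means, 472 kept their side of the threshold and, where called, their sign. Tead4 against its flank lost its call in 7 alternatives. In 23 others a member newly passed with its sign kept (Stk4 in 10, Sav1 in 7, Stk3 in 5, Tead1 in 1), and in 2 Tead1 newly passed with its sign turned. Signs of uncalled means were less stable, changing in 41 values.

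The number of members called on own probes was 0. It was 1 on genes with all 5 tumours and at least 3 probes, 1 with both arrays of ARF-128 averaged, 1 with normexp, 2 on probes of both designs and 2 with the sparser array of ARF-128, and ranged from 0 to 1 when each tumour was left out. Over all genes 17.4% were called, and 14.2%, 26.8%, 11.6%, 22.2% and 26.1% under these 5 alternatives. With each tumour left out, 0% to 21.9% of all genes were called. Against the flanking 1 Mb the number was 1. It was 2 with a flank of 0.5 Mb, 3 with the 2 arrays averaged, 0 with the median of a gene's probes, 0 with normexp, 3 on probes of both designs, 0 with scan day as a block, 2 with the sparser array, and 0 to 3 with each tumour left out. The shares of all genes were 21.6%, and 21.9%, 35.2%, 18.9%, 17.7%, 26.4%, 0% and 27.8% in this order, and 0% to 32.3% with each tumour left out. Against the chromosome it was 0, but 2 with the mean of both arrays, 2 on probes of both designs, 2 with the sparser array, and 0 to 2 with each tumour left out. Over all genes the shares were 18.4%, then 30.6%, 24.4% and 27.2%, and 0% to 27.1% with each tumour left out. Gained pairs ranged from 3 to 5 and lost pairs from 3 to 6 with each tumour left out, and lost pairs were 0 with normexp. The shares of pairs over all genes were not computed under these alternatives. The number of members with 1 sign against the flank in all tumours was 2. It was 4 with the sparser array, 4 with normexp, 4 on probes of both designs and 4 with a flank of 2 Mb, and 2 to 4 with each tumour left out. The share of all genes with 1 sign in all tumours was not computed. On probes of both designs Tead1 turned to -0.64 against the flank and -0.62 against the chromosome. The levelling of GC bins was chosen after seeing the data. The cause of these changes was not tested.

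With 1 to 3 probes per gene ARF-110 is read thinly, and the denser ARF-128 array is the noisiest, with a red signal only 4.11 times its background. No paired analysis was possible because all 5 tumours form 1 group against a common reference.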
